A study of Rattus norvegicus with 12 samples.

Results

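The regions described here are dense clusters of constantly open chromatin in the rat amygdala, chosen by their measured presence and spacing in ATAC-seq peak lists. The peaks of all 12 libraries were merged wherever they overlapped by at least 1 bp, which gave 118874 regions. Of these, 21640 held a peak in every library and are called constantly open. Repeat content and how uniquely reads map in these regions were not examined, so the name stands for recurring peaks only. The 21235 constantly open regions on chromosomes 1 to 20 were assigned by their start to fixed bins of 100 kb, and those in bins with 6 or more of them were kept. This selection left 2306 regions, 10.9% of the constantly open regions on these chromosomes, in 323 of the 10587 bins that held any. The 400 constantly open regions on chromosome X and the 5 on chromosome Y were outside the rule.

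Amygdala tissue came from adult male Sprague Dawley rats (strain label Sprague Dawley/WT) that were injected intraperitoneally with saline (Control, n = 6) or with 1 g/kg ethanol (Ethanol, n = 6), and was taken 1 h later. The tissue was whole amygdala, which contains neurons, glia and vascular cells, so that a peak cannot be assigned to a cell type. The lists held 50370 to 75847 peaks covering 75.6 to 134.6 Mb per library. They carry no read counts, so the depth of each library is unknown. Ethanol 6 had the longest covered length of the 12 libraries, followed by Control 6 with 117.5 Mb.

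In ATAC-seq, the Tn5 transposase inserts sequencing adapters into DNA that is not wrapped tightly in nucleosomes, and stretches with many insertions are called as peaks. Open stretches of this kind are found at promoters, enhancers and insulators, and genes that are active in most cells commonly keep an open promoter. Open sites often lie close together in gene-rich parts of a genome.

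The clusters were spread unevenly over the chromosomes. Chromosome 1 held 477 cluster regions in 61 bins, which was 20.7% of all of them and 18.4% of the constantly open regions of that chromosome. On chromosome 19, 233 cluster regions in 28 bins made up 29.0% of its constantly open regions. Chromosome 20 followed chromosomes 19 and 1 with 98 regions in 15 bins (16.5%), chromosome 9 with 137 regions in 18 bins (15.2%) and chromosome 7 with 174 regions in 25 bins (13.1%). The lowest shares were on chromosome 11, with 26 regions in 4 bins (3.63%), and chromosome 18, with 24 regions in 4 bins (4.01%). These shares describe where the rule placed its members and were not tested.

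**Figure D1:**
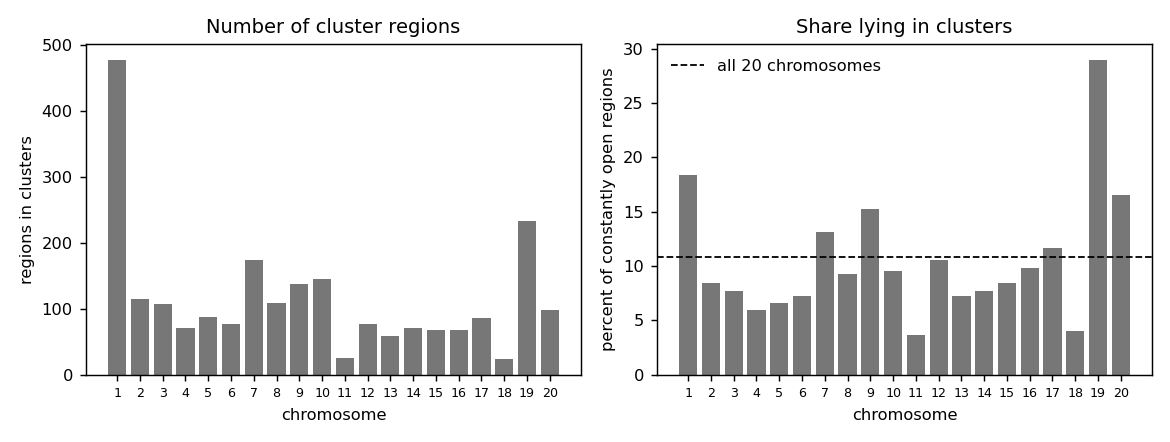
Bars give, for chromosomes 1 to 20, the number of cluster regions (left) and the percent of the constantly open regions of the chromosome that lay in clusters (right), with the dashed line at the share over all 20 chromosomes. Chromosome 1 had the most cluster regions (477) and chromosome 19 the highest share (29.0%).

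Most dense bins stood alone. Runs of neighbouring dense bins were counted, and 217 bins had no dense neighbour, 29 runs joined 2 bins, 7 joined 3 and 4 joined 4. The longest run joined 6 bins at chr1:180700001-181300000 (build Rnor_6.0, as are all region and bin coordinates here) and held 85 regions. The next joined 5 bins at chr9:8200001-8700000 with 40 regions. Runs of 4 bins included chr19:27800001-28200000 and chr9:12100001-12500000 with 40 regions each and chr13:33400001-33800000 with 33. When fixed windows of 2 Mb were used, the window at 180 to 182 Mb of chromosome 1 held 107 cluster regions (4.64% of all). The windows at 28 to 30 Mb and 26 to 28 Mb of chromosome 19 held 72 and 66. The 5 windows with the most cluster regions, of 197 with a dense bin, together held 331 of the 2306 (14.4%).

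Regions within a dense bin lay a median of 4023 bp apart (quartiles 941.5 and 9307.5 bp), and the widest gap was 66334 bp. Of the 1983 gaps, 513 (25.9%) were under 1 kb. The length of a region that lay in peaks, averaged over the 12 libraries, had a median of 2686 bp in the clusters (quartiles 1586 and 4934 bp) and ranged from 338 to 39283 bp. Cluster regions were split among a mean of 1.61 to 1.91 peaks per library, against 1.37 to 1.54 for the other constantly open regions, and the mean was higher in the clusters in all 12 libraries.

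Regions in the clusters were wider than elsewhere, and their score rank did not differ detectably. In each library, the median covered length per region was compared between the 2306 cluster regions and the 18929 constantly open regions outside the clusters. It was 2653 ± 315 bp in the clusters and 1885 ± 196 bp outside (mean ± SD of 12 libraries), a difference of 768 ± 138 bp (SD, n = 12), and it was higher in the clusters in 12 of 12 libraries (2-sided exact sign-flip test, p = 0.000488, the smallest this design allows, adjusted p = 0.000977 over 2 measures). The rank of the highest score in a region, as a percentile among all peaks of its library, was 81.2 ± 2.21 in the clusters and 80.6 ± 2.95 outside. That difference of 0.631 ± 1.33 (SD) percentile points was positive in 5 of 12 libraries, 0 in 5 and negative in 2 (exact sign-flip test, p = 0.141, adjusted p = 0.141). Both tests compare the same regions in every library, so they measure recurrence across libraries and not the spread among regions. Over regions, the widths overlapped (quartiles 1586 and 4934 bp in the clusters, 1339 and 2943 bp outside).

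The average over the clusters covered unlike kinds of bin. As the number of regions per bin went from 1 to 7, the median covered length of a region went from 1630 to 2924 bp, and beyond that it went down, to 2654 bp in bins of 8 to 9, 1974 bp in bins of 10 to 12 and 1244 bp in the 8 bins of 13 or more. The median score percentile lay between 78.3 and 80.6 in every class up to 12 regions per bin and was 88.6 in bins of 13 or more. The SD of log2 covered length between libraries of a group had a median of 0.28 in bins of 1, 0.34 in bins of 6 and 0.17 in bins of 13 or more. These classes were formed after their values had been seen, so no test was made on them. Nearby bins of chromosome 1 weigh heavily in the last class. Those starting at chr1:180500001, chr1:180700001, chr1:180800001 and chr1:180900001 held 15, 13, 23 and 20 of its 132 regions. Other bins of the class differed. Median width and score percentile were 2590 bp and 77.0 at chr19:28900001-29000000, and 2433 bp and 84.1 at chr9:12300001-12400000. They were 2443 bp and 65.8 at chr8:126900001-127000000, and 1450 bp and 90.0 at chr1:148600001-148700000.

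The libraries also converged in the densest bins as a class, though not in each of them (median log2 SD of 0.34 at chr8:126900001-127000000). Summed over the 176 bins of 6 regions, the covered length of the library with most was 1.51 times that of the library with least (3.71 to 5.62 Mb). Over the 23 bins of 10 to 12 regions the ratio was 1.13, and over the 8 bins of 13 or more it was 1.11 (0.258 to 0.288 Mb). Ethanol 6 had the highest ratio to the 12-library mean in both the bins of 6 and the bins of 13 or more, and that ratio was 1.06 in the latter. The median gap between neighbours went from 5472.5 bp in bins of 6 to 1614.5 bp in bins of 13 or more.

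**Figure D2:**
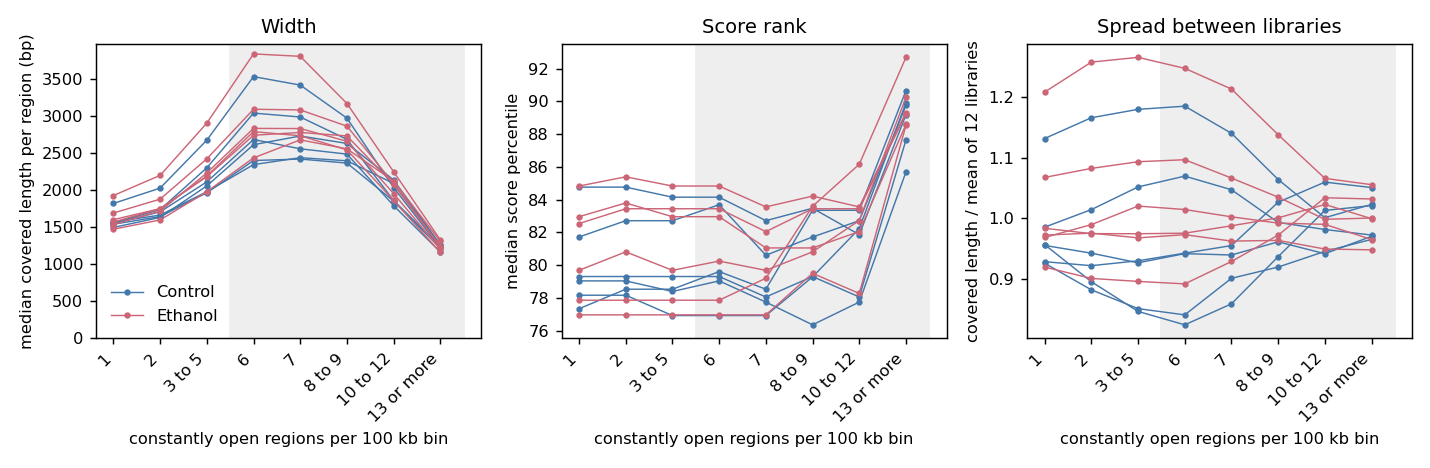
Lines are the 12 libraries (blue Control, red Ethanol) and the horizontal axes give constantly open regions per 100 kb bin, with the classes that form the clusters shaded. Panels show the median covered length per region in bp, the median score percentile and the covered length relative to the mean of the 12 libraries. Width peaked at 6 to 7 regions per bin. Pooled over the 8 bins of 13 or more, regions were narrower (1244 bp) and of higher score rank (88.6). Their summed covered length was nearly equal in all libraries, but single bins of that class differed.

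The threshold of 6 regions fell within a gradual change. The 363 bins with 5 regions had a median region width of 2629.5 bp, a median score percentile of 79.3, a median gap of 7322 bp and 24.3% of their length in peaks. In the 176 bins with 6 the values were 2871 bp, 79.3, 5472.5 bp and 28.1%.

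Peaks covered a median of 27.8% of a dense bin, and 254 of the 323 bins were covered over more than 20% and 23 over more than 50% of their length. The least covered dense bin was chr1:194800001-194900000 (7.46%), whose 6 regions had a median width of 884 bp and a median score percentile of 95.1. The most covered was chr19:300001-400000 (83.2%), whose 6 regions had a median width of 9464 bp and held a mean of 55.6 kb. The cluster region chr19:290999-327725, which starts in the bin before, also reaches into it. Besides the cluster regions, other peaks lay in these bins. Of the 4913 merged regions that started in a dense bin, 2306 were open in all 12 libraries (46.9%) and 1044 in a single library (21.2%). In the other bins with a constantly open region, these shares were 23.3% and 33.5% of 81342. The first share is raised by the rule itself, and the second is lowered with it, since both are taken of the same regions. Apart from regions open in all libraries, dense bins held 1044 in 1 library and 1563 in 2 to 11. The other bins held 27272 and 35141.

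The bin with the most regions, chr1:180800001-180900000, held 23, with a median width of 942.5 bp and a median score percentile of 99.3. Here and below, the covered length of a bin is summed over the constantly open regions that start in it, also past its end. Other peaks in the bin are left out. Peaks covered 27.7 to 29.9 kb of its regions in Control (median 29.0 kb) and 27.9 to 29.2 kb in Ethanol (median 28.7 kb). The libraries were close to each other, and the 2 ranges overlapped almost fully. Its neighbour chr1:180900001-181000000 held 20 regions and 27.8 ± 0.730 kb in Control and 27.6 ± 0.526 kb in Ethanol (SD, n = 6 each). Both lay in the longest run, where the median region was 994 bp wide, the median score percentile was 97.1 and the median log2 SD within groups was 0.17. Another bin of this neighbourhood, chr1:180500001-180600000 with 15 regions, had a lower median score percentile of 79.1 and held 21.9 ± 1.58 kb in Control and 20.1 ± 0.773 kb in Ethanol.

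The densest bins elsewhere held wider regions. On chromosome 19, the bin chr19:28900001-29000000 held 17 regions with a median width of 2590 bp, and peaks covered 50.4 ± 2.83 kb in Control and 52.0 ± 2.68 kb in Ethanol. The bin chr9:12300001-12400000 held 16 regions, with 57.2 ± 3.19 and 57.0 ± 2.42 kb. The bin chr8:126900001-127000000 held 15 regions with the lowest median score percentile of these 6 bins (65.8), and the spread between libraries there was larger, with 40.3 ± 4.17 kb in Control and 41.0 ± 5.19 kb in Ethanol. In all 6 bins the ranges of the 2 groups overlapped.

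**Figure D3:**
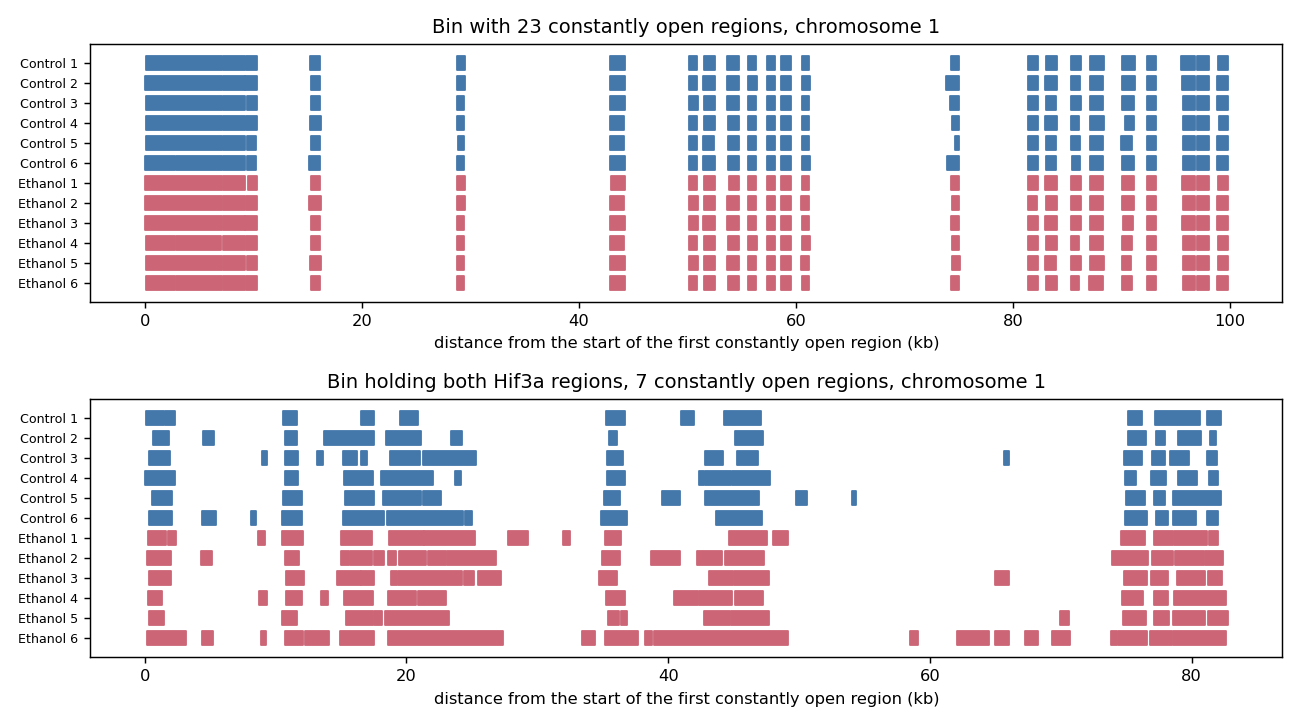
Boxes are the peaks of each library (rows, blue Control, red Ethanol) against the distance in kb from the start of the first constantly open region of the bin. In the bin with 23 regions the 12 libraries had nearly the same peaks at the same places, whereas in the bin that holds both Hif3a promoter regions the widths differed between libraries and were greatest in Ethanol 6 (39.3 kb).

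The widest cluster regions were broad stretches of many peaks. The region chr3:11788778-11841404 was covered over 30.3 to 49.8 kb in Control and 33.2 to 50.7 kb in Ethanol, by a mean of 13.5 peaks. Control 5, Control 6 and Ethanol 6 had the highest values. The region chr19:290999-327725 held 33.3 ± 1.70 kb in Control and 34.4 ± 1.48 kb in Ethanol. The region chr15:5477898-5511371 held 29.7 ± 1.48 and 30.5 ± 0.705 kb. For each of the 3, the groups differed by less than the spread between libraries (log2 differences of 0.02 ± 0.12, -0.02 ± 0.11 and -0.02 ± 0.11, SE).

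The next comparison asked whether acute ethanol changed how much of these clusters lay in peaks. In whole tissue, a change in the mix of cells and a change in openness per cell cannot be told apart. The covered length summed over the cluster regions was 9.01 ± 0.925 Mb in Control (8.07 to 10.5 Mb) and 9.48 ± 0.895 Mb in Ethanol (8.60 to 11.1 Mb), and the groups overlapped (2-sided exact permutation test, n = 6 each, p = 0.390, adjusted p = 0.606 over 4 totals). As a share of the covered length of the library, the clusters took 10.4 ± 0.857% in Control and 9.94 ± 1.09% in Ethanol (exact permutation p = 0.455, adjusted p = 0.606). All peaks together covered 29.9 ± 3.80% of the dense bins in Control and 31.7 ± 3.73% in Ethanol (exact permutation p = 0.416, adjusted p = 0.606). The cluster regions held 4040 ± 174 peaks in Control and 4026 ± 253 in Ethanol (exact permutation p = 0.920, adjusted p = 0.920). Without Ethanol 6, the difference in covered length went from 0.478 to 0.156 Mb.

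**Figure D4:**
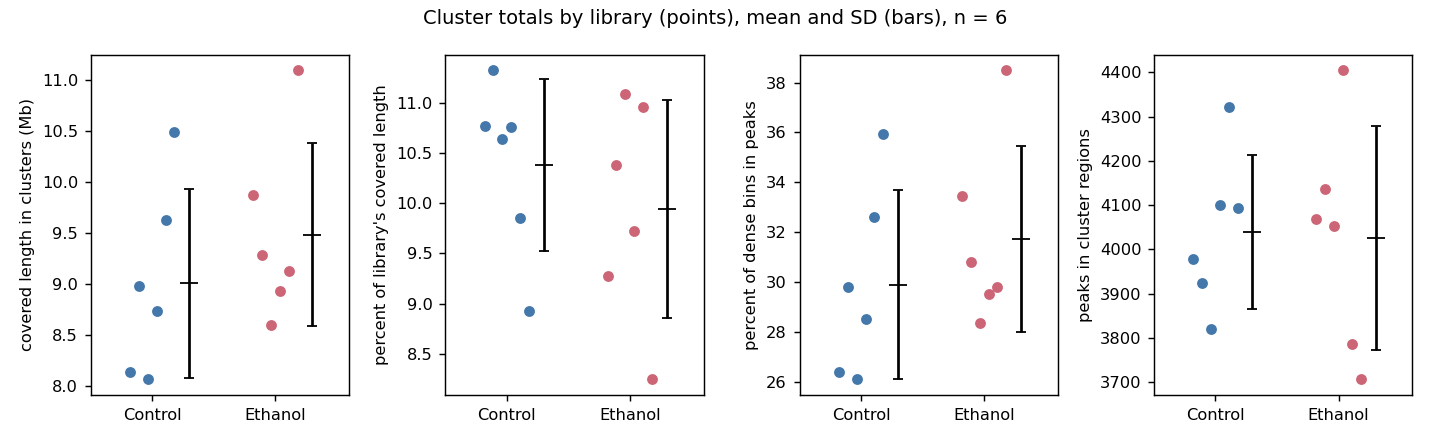
Points are libraries and bars the mean and SD of each group (n = 6), for the covered length in clusters in Mb, its percent of the covered length of the library, the percent of the dense bins in peaks and the number of peaks in cluster regions; the vertical axes do not start at 0. The groups overlapped in all 4 measures, and Ethanol 6 had the highest covered length (11.1 Mb) and the lowest share (8.24%).

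Each bin was then tested alone. For all 10587 bins with a constantly open region, the log2 covered length of the constantly open regions starting in the bin was compared with limma. It was centred on the median bin of its library. No dense bin passed an adjusted p of 0.05, against 0% of all bins, and the smallest adjusted p in a dense bin was 0.834. At an unadjusted p under 0.05 there were 9 of 323 dense bins (2.79%), against 5.12% of all bins. All 9 were wider in Ethanol (background 2.99%) and 0 were narrower (background 2.13%). In 1 dense bin (0.310%) the centred values of the groups did not overlap, against 0.161% of all bins. The median log2 difference was 0.01 in the dense bins and -0.00 over all bins.

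The 9 bins held 6 or 7 regions each, as did 252 of the 323 dense bins. In the 71 bins with 8 or more regions, none reached an unadjusted p of 0.05 in limma, against 5.12% of all bins. These bins are few, and a difference by density was not tested. Relative to the library median, the log2 differences of the 8 bins of 13 or more ran from -0.18 to -0.01. In bp their means went both ways, from 50.4 kb in Control to 52.0 kb in Ethanol at chr19:28900001-29000000. At chr1:180500001-180600000 they went from 21.9 to 20.1 kb. Without centring, the median log2 difference over all bins was 0.05, against -0.00 with it. The median SE was 0.11 in dense bins and 0.14 over all bins.

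**Figure D5:**
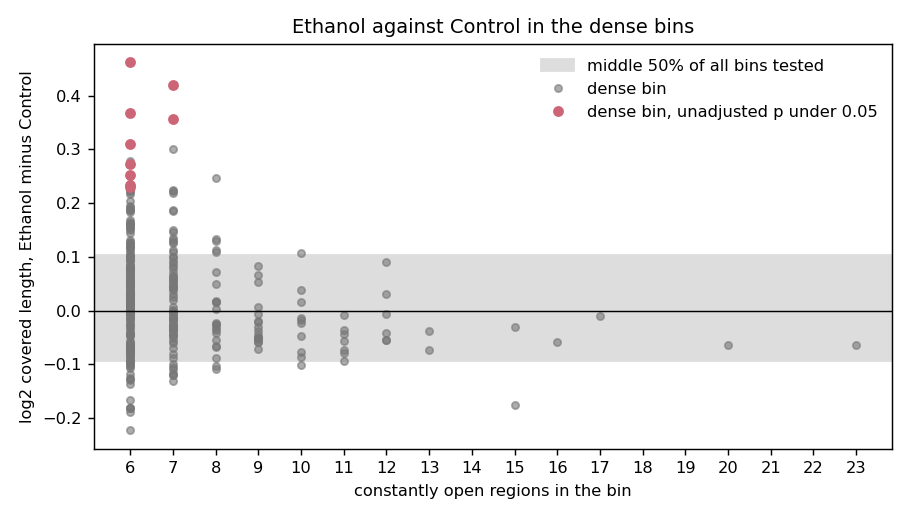
Points are the 323 dense bins, with the number of constantly open regions on the horizontal axis and the log2 difference in covered length (Ethanol minus Control, relative to the library median) on the vertical axis; red marks the 9 bins at an unadjusted p under 0.05 and the grey band the middle 50% of all 10587 bins. The red points were all positive and lay at 6 and 7 regions per bin, as did 252 of the 323 dense bins.

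The bin with the smallest p was chr1:78900001-79000000 with 7 regions. It holds Hif3a, which encodes the alpha subunit of a hypoxia-inducible factor, a transcription factor of the response to low oxygen. Its regions were covered over 16.3 to 23.3 kb in Control (median 20.2 kb) and 23.1 to 39.3 kb in Ethanol (median 25.1 kb). In bp, 5 of 6 Ethanol libraries were above every Control library, and relative to the library median all 6 were. The log2 difference was 0.42 ± 0.12 (SE, limma adjusted p = 0.834). The bin chr3:14900001-15000000 held 18.7 ± 6.05 kb in Control and 26.2 ± 6.28 kb in Ethanol (log2 difference 0.46 ± 0.15, limma adjusted p = 0.887), with the highest value in Ethanol 6 (38.4 kb). The bin chr6:9700001-9800000 held 15.7 ± 3.81 and 20.2 ± 4.21 kb (0.31 ± 0.12, limma adjusted p = 0.934).

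The narrower side held smaller differences. The bin chr4:170100001-170200000 was among the least covered dense bins (7.74% in all peaks). Its constantly open regions held 6.25 ± 0.375 kb in Control and 5.73 ± 0.529 kb in Ethanol (log2 difference -0.18 ± 0.09, limma adjusted p = 0.953). The bins chr8:22200001-22300000 and chr2:198300001-198400000 had log2 differences of -0.22 ± 0.13 and -0.19 ± 0.11, and the first was 0.13 with the higher scoring 50% of peaks. The groups overlapped in all 3.

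The same fit was made for each of the 21640 constantly open regions, and all 2306 cluster regions entered it, since no filter on low values was used. None passed an adjusted p of 0.05, against 0% of all constantly open regions, and the smallest adjusted p in a cluster region was 0.878. At an unadjusted p under 0.05 there were 82 (3.56%), against 5.18%. Of these, 50 were wider in Ethanol (2.17%, background 2.95%) and 32 narrower (1.39%, background 2.22%). The centred values did not overlap between groups in 3 cluster regions (0.130%, background 0.162%). The median log2 difference was -0.03 in the clusters and -0.01 over all regions.

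Among the wider regions, chr3:14999358-15017868 had the smallest p. It was covered over 3199 to 7418 bp in Control (median 4498 bp) and 6741 to 11844 bp in Ethanol (median 7989.5 bp), and 4 of 6 Ethanol libraries were above every Control library (log2 difference 0.74 ± 0.15, limma adjusted p = 0.878). The region chr15:42927618-42932244 had 1198 to 2527 bp in Control and 2162 to 3962 bp in Ethanol (0.77 ± 0.18, limma adjusted p = 0.878). The region chr7:125585040-125589950 had 918 to 2373 bp and 2003 to 4563 bp (1.05 ± 0.25, limma adjusted p = 0.878). Its score percentile was 37.2, low among cluster regions, and its log2 difference was -1.30 when only the higher scoring 50% of peaks were kept.

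Among the narrower regions, chr10:45288332-45292459 had 2465 to 3362 bp in Control (median 2852 bp) and 1723 to 2544 bp in Ethanol (median 2086.5 bp). Relative to the library median its groups did not overlap, and in bp 5 of 6 Ethanol libraries were below every Control library (log2 difference -0.49 ± 0.12, limma adjusted p = 0.878). The regions chr11:33801743-33803352 and chr4:170147623-170150042 had log2 differences of -0.43 ± 0.13 and -0.49 ± 0.17. The other regions whose centred groups did not overlap were chr1:78995897-78998702 at Hif3a and chr3:79791980-79794742 (-0.51 ± 0.24), which was named after its values were seen and whose groups overlapped in bp (1643 to 2638 bp in Control and 515 to 1872 bp in Ethanol).

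Genes could be named for few of the regions. No annotation of Rnor_6.0 was used here, and names come from the annotation of the study's peak table, which was held in part and lists first the peaks with the smallest p in the study's own ethanol test. It listed 23 cluster regions, so the genes below are no sample of the clusters. Of these, 9 lay within 2 kb of a transcription start, 4 in a gene body only and 10 in neither. Within 200 kb, 2 had no gene, and both lay on chromosome 1, 1 in the longest run and 1 outside it, in the 2 Mb window with the most cluster regions.

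The promoter regions belonged to Hif3a, with 2 regions, and to 7 other genes. Hif3a had 1299 ± 296 bp in Control and 2065 ± 492 bp in Ethanol at chr1:78995897-78998702, annotated to its promoter and gene body (0.61 ± 0.17, limma adjusted p = 0.878), and 3669 ± 697 and 5035 ± 433 bp at the next region, chr1:78998889-79004845 (0.41 ± 0.14, limma adjusted p = 0.938). The study's own test on read counts reported both Hif3a intervals as more open after ethanol. Covered length is a different measure, and its p cannot be set against that result. Pcbp2, which encodes an RNA-binding protein of poly(C) tracts, had 2409 ± 644 and 2316 ± 966 bp at chr7:144074380-144078973. Hapln4, a link protein of perineuronal nets, had 2526 ± 408 and 2254 ± 554 bp. Dtx3, a member of the Deltex family of ubiquitin ligases, had 2308 ± 252 and 2226 ± 177 bp, and Fxyd3, a regulator of the sodium pump, had 1783 ± 378 and 2054 ± 720 bp. Ccdc130 had 2127 ± 461 and 2388 ± 332 bp, RGD1309036 had 2758 ± 401 and 2501 ± 782 bp, and LOC100911672 had 5518 ± 475 and 4903 ± 1596 bp. Apart from Hif3a, the limma adjusted p of these genes ran from 0.976 to 0.990.

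Gene bodies were those of Ggcx, the carboxylase of vitamin K-dependent proteins, Prr5, a subunit of the mTORC2 kinase complex, Hspa1l, a chaperone of the HSP70 family, and LOC367515. Their covered lengths were 4693 ± 1211 bp in Control and 3668 ± 1818 bp in Ethanol for Ggcx, 4403 ± 1784 and 6222 ± 3186 bp for Prr5, 1205 ± 99.9 and 1050 ± 166 bp for Hspa1l and 1072 ± 116 and 949 ± 119 bp for LOC367515. None had an unadjusted limma p under 0.05.

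RefSeq promoters of build GRCr8 matched 4 of the 8 genes with a promoter region. Hif3a is shown because its bin had the smallest p of the dense bins, and Pcbp2 because its promoter had the most CG pairs of the 4. Each run gives the 250 bases before a transcription start on the strand of the gene, with CG pairs in capitals. The coordinates are of GRCr8 and cannot be set beside those of the regions, and which of the 2 Hif3a starts lies in the open region is not known.
Hif3a, chr1:86877839-86878088, minus strand: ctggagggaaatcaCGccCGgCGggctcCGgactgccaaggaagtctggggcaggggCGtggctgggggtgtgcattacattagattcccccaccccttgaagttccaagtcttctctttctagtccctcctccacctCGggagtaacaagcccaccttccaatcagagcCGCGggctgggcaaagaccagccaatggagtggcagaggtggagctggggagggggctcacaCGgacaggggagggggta
Hif3a, chr1:86872106-86872355, minus strand: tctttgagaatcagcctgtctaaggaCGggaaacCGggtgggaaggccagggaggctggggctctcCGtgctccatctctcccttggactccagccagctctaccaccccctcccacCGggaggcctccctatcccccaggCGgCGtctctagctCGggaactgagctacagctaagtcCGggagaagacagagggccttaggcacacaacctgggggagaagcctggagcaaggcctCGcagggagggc
Pcbp2, chr7:135483651-135483900, plus strand: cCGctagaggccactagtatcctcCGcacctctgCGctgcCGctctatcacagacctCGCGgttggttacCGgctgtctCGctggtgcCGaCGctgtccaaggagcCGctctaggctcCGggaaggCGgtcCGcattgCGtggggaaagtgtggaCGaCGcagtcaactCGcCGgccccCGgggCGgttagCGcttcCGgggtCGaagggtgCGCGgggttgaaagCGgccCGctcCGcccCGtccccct
The Hif3a runs hold 9 CG pairs each and the Pcbp2 run 30, against a median of 5 over 33469 promoters, and 38.5% and 5.35% of promoters held at least as many. The GC box GGGCGG was found on either strand 0 times in both Hif3a runs and 2 times in that of Pcbp2, and it occurs in 30.5% of promoters. The letters CCAAT were found 2 times in the first Hif3a run (34.0% of promoters), and TATAAA in none of the 3 (12.9% of promoters). The sequences and the repeat content of the cluster regions themselves were not read, since no genome of Rnor_6.0 was used here.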

How the data were processed

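ATAC-seq peak lists of 12 amygdala libraries were used, 6 Control and 6 Ethanol, grouped by their titles. The authors deposited a separate list per library with chromosome, start, end, name and a score. Per the submitters' processing notes, the genome build was Rnor_6.0 and the tools were BWA, MACS2 2.1.1, bedtools 2.27.1, featureCounts 1.5.0 and edgeR, with no role given. What the deposited score measures is not given in the sources used here; each list has 150 to 186 distinct scores, which were used only to rank the peaks of a library. How the lists were filtered, and whether insertion sites were shifted, is not given in the sources used here. Depth, which affects how many peaks are called and how wide they are, is unknown, and no counting interval was computed.

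Peaks were merged at 1 bp overlap, and members were found by the rule in bins of 100 kb. The members and lists were chosen with earlier results of these data known. Totals were compared by exact permutation of the 12 libraries (smallest p possible 0.00216), and members with other regions by an exact sign-flip test within libraries. Bins and regions were compared with limma 3.58.1 in R 4.3.3 on log2 bp centred on the library median, with Benjamini-Hochberg adjustment over all bins or regions at 0.05. The scripts were tested on simulated data first. The methods of the study state edgeR on read counts, which peak lists do not allow. Covered length measures the width of called peaks, not read density.

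Named were the 6 bins with most regions, the 3 bins and 3 regions leading by limma p among those wider and those narrower in Ethanol, the 3 widest regions, bins or runs given for a stated feature, and genes that the annotation of the study gives for a member. The regions whose groups did not overlap were counted after their values were seen. The labels name no litter, batch or date, so no values within batches could be given. Alternatives were other peak sets, bin minimums of 5 and 7, bins shifted by 50 kb, regions covered over at least 50% in all libraries, other centring, a replicate block and leaving out each library. Coordinates are 1-based. Python 3.11.15, numpy 2.4.6, pandas 2.3.3 and scipy 1.17.1 were used.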

Additional observations from a re-analysis of the deposited data

Results flagged for a closer look

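Among 58 groups of 6 values examined, 3, all of named bins or regions, held a library far from the other 5. Chance would give about 2.9 (1 in 20) among independent groups. The groups are not independent, since a flagged region is part of a flagged bin, so that number is only a guide. The covered length of the bin chr3:14900001-15000000 was 38381 bp in Ethanol 6, and the other Ethanol libraries had 21184 to 26207 bp. The region chr3:14999358-15017868, which starts in that bin, had 11844 bp in Ethanol 6 and 6741 to 8102 bp in the others. The covered length of the bin chr19:300001-400000 was 52243 bp in Ethanol 2 and 56386 to 58623 bp in the other Ethanol libraries. Ethanol 6 also had the longest covered length of all lists (134.6 Mb), and the part of that in these values was not tested.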

How the results depend on the processing

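No bin or region of the clusters passed an adjusted p of 0.05 in limma under any alternative run. Of 64 values of the totals, width, score rank and counts recomputed with all libraries, 61 were kept. For totals, width and score rank this meant the same direction and call. For counts it meant a similar number, whatever its split into wider and narrower. The difference in peaks in cluster regions went from -14.0 to 51.8 with the higher scoring 50% of peaks. The 9 dense bins at an unadjusted p became 14 with the 50370 highest scoring peaks of each library and 4 with all peaks in the bin. Their split into wider and narrower was 9 and 0, and 5 and 3 after quantile normalization, 11 and 3 with lists of equal number. For regions, 50 were wider and 32 narrower, 63 and 12 without centring and 47 and 38 after quantile normalization. The causes were not tested.

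Of 143 log2 differences of the 23 named bins and regions with all libraries, 17 changed sign. Without centring these were 0.0439 for chr19:28900001-29000000, 0.0234 for chr8:126900001-127000000, 0.0399 for chr19:300001-400000, 0.0489 for chr1:194800001-194900000, 0.0467 for chr19:290999-327725 and 0.0422 for chr15:5477898-5511371. With the higher scoring 50% of peaks they were 0.0449, 0.0524 and 0.000948 for the first 3 of these, 0.13 for chr8:22200001-22300000, 0.0253 for chr15:5477898-5511371 and -1.30 for chr7:125585040-125589950. With lists of equal number they were 0.00182 for chr1:194800001-194900000, -0.22 for chr7:125585040-125589950, -0.11 for chr3:11788778-11841404 and 0.00351 for chr19:290999-327725. After quantile normalization chr3:11788778-11841404 had -0.00745.

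Leaving out each library in turn gave differences of 0.156 to 0.773 Mb in covered length, -0.725 to -0.0936 percentage points in its share, 0.502 to 3.06 points in the covered share of the bins and -89.9 to 49.9 peaks, none past the threshold, and 748 to 788 bp in width and 0.385 to 0.806 percentile points in score rank. It left 3 to 13 dense bins and 72 to 115 regions at an unadjusted p, with 3 bins without Control 1, 5 without Control 3, 5 without Control 4 and 5 without Ethanol 6. Named differences that changed sign in it ranged from -0.0539 to 0.0320 for chr19:28900001-29000000, -0.0864 to 0.0215 for chr8:126900001-127000000, -0.0531 to 0.0318 for chr19:300001-400000, -0.0442 to 0.0375 for chr1:194800001-194900000, -0.0314 to 0.0879 for chr3:11788778-11841404, -0.0617 to 0.0253 for chr19:290999-327725 and -0.0587 to 0.0312 for chr15:5477898-5511371.

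The rule gave 4121 regions with 5 or more per bin, 1250 with 7 or more, 2240 with bins shifted by 50 kb (1226 shared) and 517 with regions covered over at least 50%. Whether equal replicate numbers mark pairs of libraries is not known. Of 6 such pairs, 2 correlated over 0.1, with a mean of 0.05 against -0.01 for other pairs. Correlations of width cannot show whether libraries were handled together. With the replicate block, 9 dense bins and 101 regions were at an unadjusted p, with 0 past the adjusted threshold. Without read counts, depth could not be separated from width.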
